A study of Mus musculus with 6 samples.

Results

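The ATP-binding cassette (ABC) genes encode a family of proteins that, in most of its branches, use ATP to move lipids, bile salts, drugs or conjugated hormones across membranes. The family is described here by 43 of its genes, in subfamilies A to G, chosen by gene family from a list of symbols. All 43 had at least 1 probe set annotated to that gene alone, 90 probe sets in all, out of 18193 genes and 45037 probe sets tested. Each gene is represented by its brightest such probe set, picked by its mean over all 6 arrays, so the levels that chose the probe sets are given as a description. Abcc3 gives the list its name because its difference on these arrays was known when the list was made. Its values are therefore also a description of these arrays and not an independent test. Abca14 and Abca16 are on the array under symbols of the same family but were not on the list (differences of -0.34 and -0.23, adjusted p = 0.883 and 0.769, limma).

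The transgenic group held 3 testis arrays of adult mice carrying a constitutively active mutant of DREAM, and the wild-type group held 3 arrays of mice without it. Both groups had a hybrid background of C57BL/6 and CBA. DREAM, the product of Kcnip3, is a calcium sensor that binds the DRE element of promoters and represses transcription when free of calcium. The submitters describe the replicates as independent biological ones, and the promoter that drives the transgene is not given in the sources used here. Kcnip3 averaged 7.27 ± 0.11 in transgenic and 7.21 ± 0.11 in wild-type testis (log2 intensity, SD, n = 3 each), and whether its probe sets match the transgene is not known here. The spermatid marker Akap4, a sperm tail gene, averaged 13.12 ± 0.03 in transgenic and 13.04 ± 0.04 in wild-type testis, near the top of the scale on every array. Wild type replicate 2 stood apart on the first principal component, at 42.2 against -23.3 to 5.27 for the other arrays. The number of arrays, 3 per group, limits the precision of every value below.

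Most ABC proteins have paired membrane domains and paired ATP-binding domains, while the half-size ones work as pairs of proteins. Subfamily C holds the multidrug resistance-associated proteins (MRPs), which export glutathione, glucuronide and sulfate conjugates, together with the sulfonylurea receptors of potassium channels. Many members of subfamilies A and G export sterols and phospholipids, subfamily B holds P-glycoprotein and the bile transporters, and subfamily D sits in peroxisome and lysosome membranes. Subfamilies E and F have ATP-binding domains but no membrane domain and act on ribosomes. In testis and brain, P-glycoprotein and Abcg2 are known as efflux pumps of the blood barrier.

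The DRE core is GTCA, and 33 of the 43 genes matched a promoter window in a RefSeq table of GRCm38.p6. Abcc3 had no window there, so the counts that follow do not cover it. A window runs from 250 bases before to 50 after an annotated start. GTCA, read on both strands, occurred in 31 of the 40 windows of these genes (77.5%) and in 85.2% of all 32851 windows of the table, so most promoters hold it. Abca1 is shown because it had the largest positive difference of the 43 genes, and the stretch between Abcg5 and Abcg8 because these neighbours are transcribed away from each other with 109 bases between their annotated starts. Capitals mark GTCA on either strand. The Abca1 stretch is chr4:53159896-53160145 on the minus strand and holds 2 matches. The stretch between Abcg5 and Abcg8 is chr17:84683012-84683120, printed on the plus strand, and holds 0. A match is a description of letters and not a binding site.
Abca1: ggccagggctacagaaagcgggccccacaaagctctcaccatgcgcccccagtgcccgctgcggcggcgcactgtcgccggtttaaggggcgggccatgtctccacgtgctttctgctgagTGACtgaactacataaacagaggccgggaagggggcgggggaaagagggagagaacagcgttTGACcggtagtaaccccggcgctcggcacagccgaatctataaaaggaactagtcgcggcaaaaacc
Abcg5 and Abcg8: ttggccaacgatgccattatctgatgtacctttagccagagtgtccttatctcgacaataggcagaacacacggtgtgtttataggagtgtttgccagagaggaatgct

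Abcc3 was lower in transgenic testis and was the single member past the threshold. It encodes MRP3, which exports glucuronide conjugates and bile salts across the basolateral membrane of epithelial cells. Its log2 intensity was 8.13, 8.02 and 8.07 on the 3 transgenic arrays, against 8.99, 9.48 and 9.32 on the 3 wild-type arrays. Every transgenic array lay below every wild-type array, and the transgenic arrays lay closer together. The means were 8.07 ± 0.06 in transgenic and 9.26 ± 0.25 in wild-type testis (SD, n = 3 each). That is a log2 difference of -1.19 (SE 0.13, 95% interval -1.48 to -0.90), or a 2.28-fold lower intensity. The adjusted p of this probe set was 0.00448 in a limma fit over all 45037 probe sets, where it ranked 54 by p. Abcc3 has this 1 probe set, so no other one of the gene stands beside it. The difference was -1.33 to -1.08 when any 1 array was left out. Its adjusted p was 0.0571 without transgenic replicate 2, which ends the call, and 0.00104 to 0.0466 without any of the others. The log2 difference between the 3' and 5' probe sets of the Gapdh control, which reflects RNA integrity, was 0.21, 0.26 and 0.33 on the transgenic arrays, against 0.16, 0.06 and 0.11 on the wild-type arrays. These groups did not overlap. With it as a covariate, an alternative added after the data were seen, Abcc3 read -0.84 (SE 0.22, limma adjusted p = 0.335), and 18 probe sets of 45037 passed. The call of Abcc3 thus ended there too. Because this measure separates the arrays as genotype does, RNA integrity and genotype cannot be told apart here. The part of RNA integrity in the difference was not tested.

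Among the 43 genes, 1 was called at an adjusted p under 0.05 (2.33%), against a background of 0.616% of the 18193 genes by their brightest probe set, or 0.352% when only lower ones are counted. Since Abcc3 was listed with its difference known, nothing is read from that share. The other 42 genes gave 0 calls, and 0 of them had an unadjusted limma p under 0.05, where the background is 7.48%. Their differences ran from -0.13 (Abcc4) to 0.26 (Abca1) with a median of 0.045 over the 42 and 0.02 over all 18193 genes. Counting Abcc3, 28 of the 43 differences lay above 0 (65.1%), against 56.8% of all genes. Over all 90 probe sets of the family, 49 lay above 0 (54.4%, against 56.5% of all probe sets), and with the Gapdh covariate 18 of the 43 genes did, with a median of -0.07. The groups did not overlap for 3 of these 42 genes, Abca2, Abca6 and Abcc9 (7.14%, against 12.5% of all genes). With all arrays and no covariate, the 95% intervals of 39 of the 42 lay inside a 1.5-fold change in either direction. Those of all 42 lay inside a 2-fold change. The 3 genes whose intervals reached past a 1.5-fold increase were Abca1, Abca8b and Abcd4. With the Gapdh covariate, the differences of the 42 ran from -0.55 to 0.91, the highest past a 1.5-fold increase. The intervals of that fit were not set against these bounds.

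**Figure D1:**
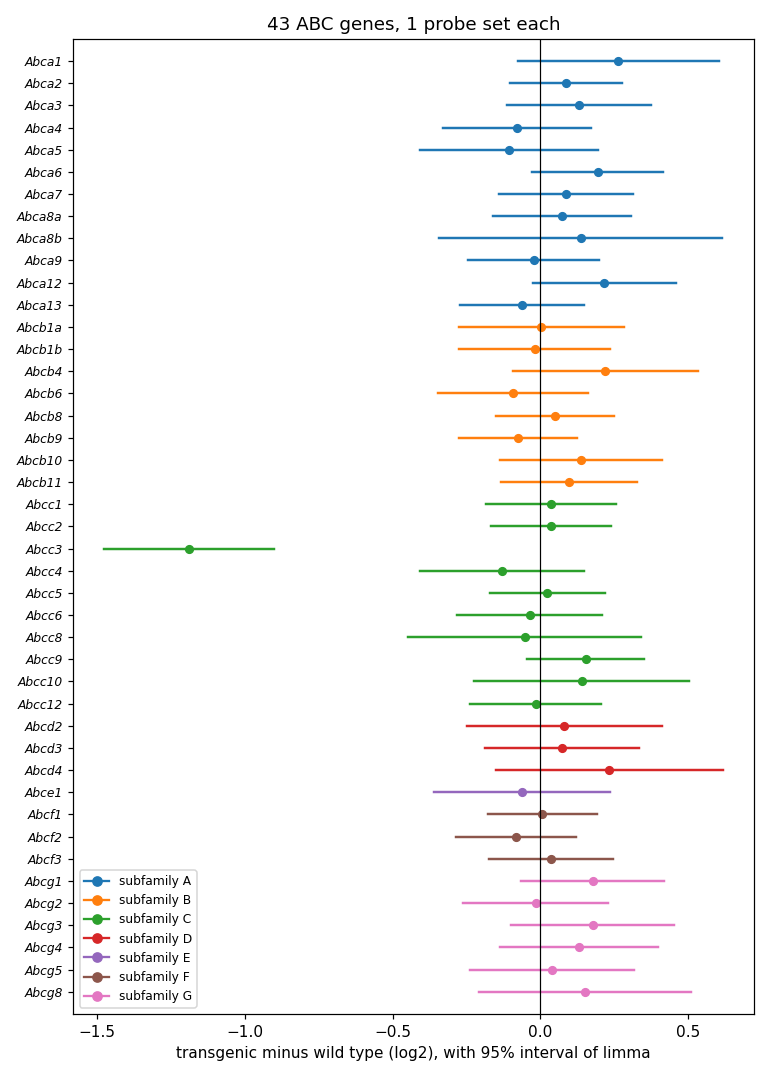
Difference of each of the 43 ABC genes between transgenic and wild-type testis (x axis, log2 units, transgenic minus wild type), with the limma 95% interval as a line and the genes listed by subfamily down the y axis. Abcc3 sits at -1.19, and the other 42 genes lie between -0.13 and 0.26.

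The other 9 genes of subfamily C had differences from -0.13 to 0.15, and 0 of them passed. Abcc1 encodes MRP1, a glutathione-conjugate exporter made in many tissues. It read 8.53, 8.43 and 8.41 on the transgenic arrays and 8.45, 8.53 and 8.28 on the wild-type arrays, so the groups overlapped (difference 0.04, limma adjusted p = 0.985). Abcc2, the MRP2 of the liver's canalicular membrane, averaged 3.66 in transgenic and 3.62 in wild-type testis, with a difference of 0.04. Abcc4, an exporter of cyclic nucleotides and conjugates, read 4.88, 4.99 and 4.74 on the transgenic arrays, against 4.88, 5.24 and 4.88 on the wild-type arrays. Its difference was -0.13 (SE 0.12, limma adjusted p = 0.946), the most negative after Abcc3. Abcc12, an MRP9 gene known from mouse testis and sperm, read 10.12, 9.88 and 10.09 in transgenic testis, against 10.02, 10.12 and 10.00 in wild type. These overlapping values gave a difference of -0.02 (95% interval -0.24 to 0.21), and a dimmer probe set read 0.19 (adjusted p = 0.899, limma). Abcc6, a liver gene linked to ectopic mineralization, and Abcc10, an exporter of lipophilic anions, had differences of -0.04 and 0.14.

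**Figure D2:**
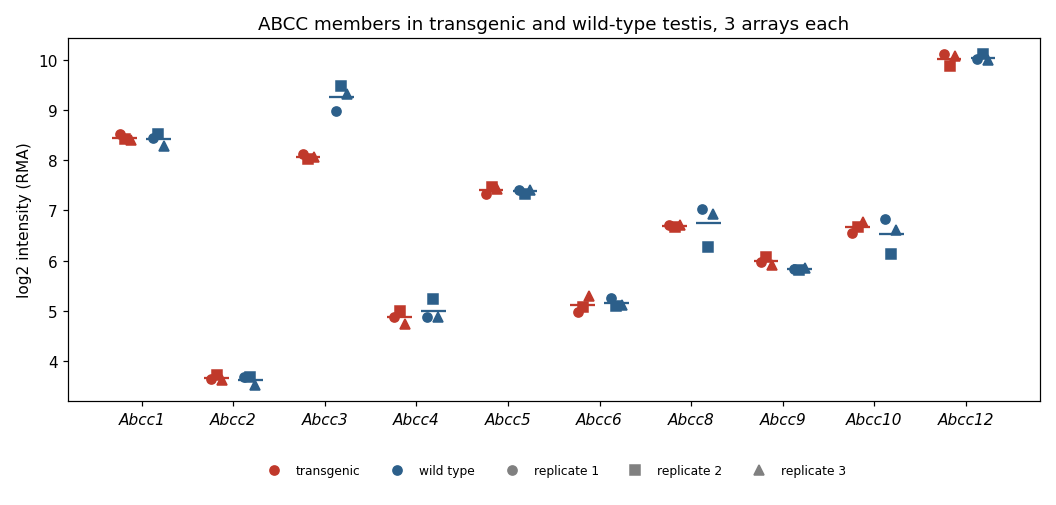
Log2 intensity of the 10 subfamily C genes (y axis) on each transgenic array (red, left of each pair) and each wild-type array (blue, right of each pair), where the marker shape gives the replicate number and the short lines are group means. Abcc3 reads 8.02 to 8.13 in transgenic and 8.99 to 9.48 in wild-type testis, and the groups overlap for the other genes apart from Abcc9.

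The sulfonylurea receptors are the regulatory subunits of ATP-sensitive potassium channels. Abcc9, which encodes SUR2, read 5.97, 6.08 and 5.91 on the transgenic arrays, against 5.83, 5.81 and 5.86 on the wild-type arrays. Its groups did not overlap, and the difference of 0.15 did not pass (SE 0.09, limma adjusted p = 0.847). Its dimmer probe sets read 0.25 and 0.04. Abcc8, which encodes SUR1, read 6.70, 6.66 and 6.71 in transgenic testis, and 7.03, 6.28 and 6.92 in wild type. Wild type replicate 2 was the lowest of these arrays. Its difference was -0.05 with all arrays and -0.285 without wild type replicate 2 (unadjusted p = 0.0117, adjusted p = 0.253, limma).

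Abcc5, another exporter of cyclic nucleotides, has 10 probe sets, the most of any member. Its brightest one read 7.33, 7.46 and 7.42 in transgenic and 7.40, 7.33 and 7.41 in wild-type testis, a difference of 0.02. The 10 differences ran from -0.33 to 0.10, with 5 above and 5 below 0. The lowest came from a dim probe set that read 4.43, 4.35 and 4.45 on the transgenic arrays, against 4.55, 4.90 and 4.78 on the wild-type arrays. Those groups did not overlap, and the difference of -0.33 (SE 0.11, unadjusted p = 0.0126) did not pass over all probe sets (limma adjusted p = 0.473). With RMA values and no detection call, such dim readings are not shown to lie above background.

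Among the sterol and phospholipid exporters, Abca1 had the largest positive difference. It encodes the protein that hands cholesterol to apolipoprotein A-I. Its brightest probe set read 9.58, 9.50 and 9.08 in transgenic testis, and 8.95, 9.34 and 9.08 in wild type. Transgenic replicate 3 was level with wild type replicate 3, and the difference was 0.26 (SE 0.15, limma adjusted p = 0.847). Its dimmer probe sets read 0.21 and 0.23, so all 3 had the same sign. When 1 array was left out, the difference ran from 0.17, without transgenic replicate 1, to 0.42, without transgenic replicate 3 (limma adjusted p = 0.941 and 0.798). Without wild type replicate 2 it was 0.37 (limma adjusted p = 0.357), and without wild type replicate 1 it was 0.18. Abcg1, which passes cholesterol on to high-density lipoprotein, had a difference of 0.18 and its relative Abcg4 one of 0.13, with overlapping groups for both. Abcg5 and Abcg8, which pair to form the intestinal and biliary sterol exporter and whose start region is printed above, read 0.04 and 0.15.

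The 12 subfamily A genes had 8 differences above 0 and 4 below, with a median of 0.09 and 0 calls. Abca6, Abca8a, Abca8b, Abca9 and Abca5 lie side by side on chromosome 11, and their differences were 0.19, 0.07, 0.14, -0.02 and -0.11. These neighbours thus had both signs. Abca6 read 3.79, 3.75 and 3.98 in transgenic testis, against 3.58, 3.73 and 3.63 in wild type, with groups that did not overlap (SE 0.10, limma adjusted p = 0.802). Abca8b had the widest spread of the family on the transgenic arrays, at 5.21, 4.95 and 5.93, against 5.26, 5.29 and 5.13 in wild type. Abca2, an endolysosomal lipid transporter, read 6.46, 6.47 and 6.53 in transgenic testis, against 6.45, 6.38 and 6.37 in wild type, a difference of 0.09. Abca12, the lipid transporter of the skin barrier, had the smallest p of the 42 other genes, with a difference of 0.22 (unadjusted p = 0.0742, adjusted p = 0.796, limma). Abca3 of lung surfactant, Abca4 of the photoreceptor and Abca7, which is linked to phagocytosis, read 0.13, -0.08 and 0.09. Abca13 read -0.06.

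Of the 8 subfamily B genes, 0 passed, and their differences ran from -0.09 to 0.22. Abcb1a and Abcb1b together encode mouse P-glycoprotein, the drug efflux pump, and read 0.003 and -0.02. These genes are close copies, and cross-hybridisation between them was not tested. Abcb1b averaged 4.07 in transgenic and 4.09 in wild-type testis, dim readings that are not shown to lie above background. Abcb1a read 5.51, 5.94 and 5.84 in transgenic and 5.65, 5.81 and 5.82 in wild-type testis, so the groups overlapped. Their neighbour on chromosome 5, Abcb4, moves phosphatidylcholine into bile. It read 7.14, 7.37 and 7.41 in transgenic testis, against 7.36, 6.85 and 7.05 in wild type, and its difference of 0.22 (SE 0.14, limma adjusted p = 0.878) was the largest of the subfamily. It read 0.36 without wild type replicate 1 and 0.10 without wild type replicate 2 (limma adjusted p = 0.504 and 0.821). Abcb11, the bile salt export pump, read 0.10. The mitochondrial members Abcb8 and Abcb10 read 0.05 and 0.14, and the lysosomal peptide transporter Abcb9 read -0.08. Abcb6, a porphyrin-linked transporter, had the lowest value of the subfamily, at -0.09. Abcg2, the other efflux pump of the blood barrier, read 8.61, 8.43 and 8.49 in transgenic and 8.35, 8.68 and 8.55 in wild-type testis. The difference of -0.02 (95% interval -0.26 to 0.23) came from overlapping groups. Abcg3, a rodent relative of Abcg2, read 0.18 with its brighter probe set and -0.09 with the other.

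Abcd2 and Abcd3 carry fatty acids into peroxisomes, and Abcd4 takes part in lysosomal cobalamin transport. All 3 had a difference above 0, at 0.08, 0.07 and 0.23. Abcd4 read 6.11, 6.07 and 6.13 on the transgenic arrays, against 6.20, 5.44 and 5.97 on the wild-type arrays, where replicate 2 was far the lowest. The Abcd4 difference did not pass with all arrays (limma adjusted p = 0.915) and read 0.02 without wild type replicate 2. Without wild type replicate 1 it read 0.40 (unadjusted p = 0.0270, adjusted p = 0.556, limma).

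Of the 4 members that act on ribosomes, 0 passed. Abce1, which splits ribosomes after termination, read 7.59, 7.68 and 7.55 in transgenic testis, against 7.44, 7.96 and 7.61 in wild type (difference -0.06). A dimmer Abce1 probe set, whose probes may hit more than 1 transcript, read 7.38, 7.34 and 7.35 in transgenic testis, against 7.51, 7.79 and 7.58 in wild type. Those groups did not overlap, and the difference of -0.27 (SE 0.10, unadjusted p = 0.0227) did not pass (limma adjusted p = 0.598). The dimmest read 0.10. Abcf1, a partner of initiation factor eIF2, read 9.93, 9.90 and 9.95 in transgenic and 9.93, 9.91 and 9.92 in wild-type testis, with a 95% interval of -0.18 to 0.19. Abcf2 and Abcf3 read -0.08 and 0.04.

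Over all 90 probe sets of the family, Abcc3's was the 1 call (1.11%, against 0.444% of all 45037 probe sets), and 3 had an unadjusted p under 0.05, against a background of 6.69%. The dimmer probe sets of Abcc5 and Abce1 were the other two. Of the 26 genes with several probe sets, 12 had all of them on the same side of 0 and 14 on both sides. The groups did not overlap for 8 of the 90 probe sets (8.89%, background 11.3%). Abcc3 was among them.

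**Figure D3:**
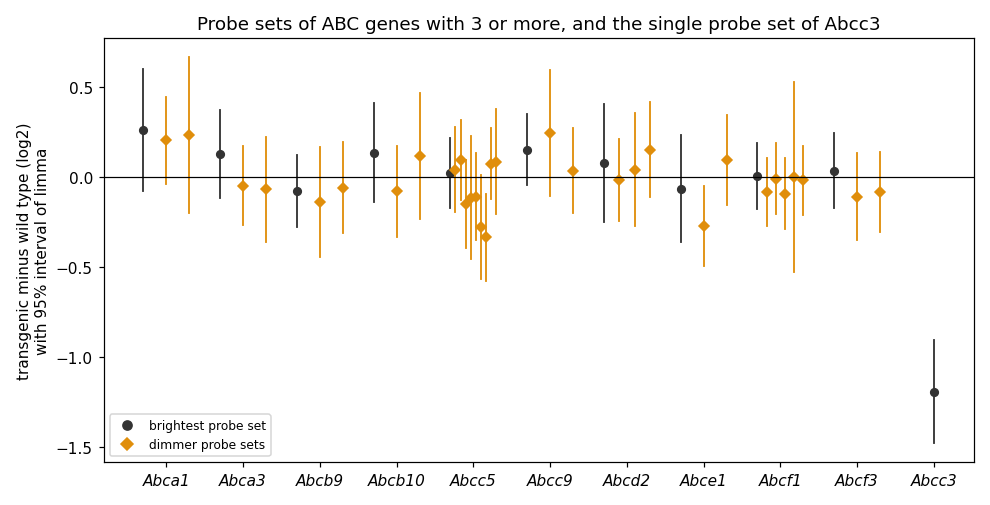
Difference between transgenic and wild-type testis (y axis, log2 units, with the limma 95% interval as a line) for every probe set of the ABC genes that have 3 or more, and for the single one of Abcc3 at the right, with the brightest probe set of a gene in black and the dimmer ones in orange. The 10 Abcc5 probe sets run from -0.33 to 0.10, and Abcc3 lies at -1.19.

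The arrays did not contribute alike. Wild type replicate 2 was the array farthest from the median of the 6 for 13 of the 43 genes (30.2%), much like the 29.7% it holds over all 18193 genes. It was the highest array for Abcc3, at 9.48, and without it Abcc3 read -1.08 (SE 0.11, limma adjusted p = 0.00195). The sign of the difference changed without it for 8 of the 43 genes, Abca5, Abcc5, Abcc10, Abcc12, Abcd2, Abce1, Abcg2 and Abcg5, and 4 then had an unadjusted p under 0.05. These were Abcc3, Abca1, Abca6 and Abcc8. Leaving out wild type replicate 1 also gave 4 members under 0.05, array weights gave 6 and the Gapdh covariate 4. With all arrays, equal weights and no covariate the count was 1. The share of all genes under 0.05 was not counted in these settings, so nothing is read from these counts. Adjusted calls over all probe sets, 200 with all arrays, numbered 429 without wild type replicate 2, 156 without wild type replicate 1 and 1058 with array weights. The median SD over the 43 genes was 0.09 on the transgenic and 0.15 on the wild-type arrays. The wild-type SD was the larger for 24 genes and the smaller for 19. Without replicate 2 the wild-type median was also 0.09, but an SD over fewer arrays tends to be smaller, so these medians are not alike.

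**Figure D4:**
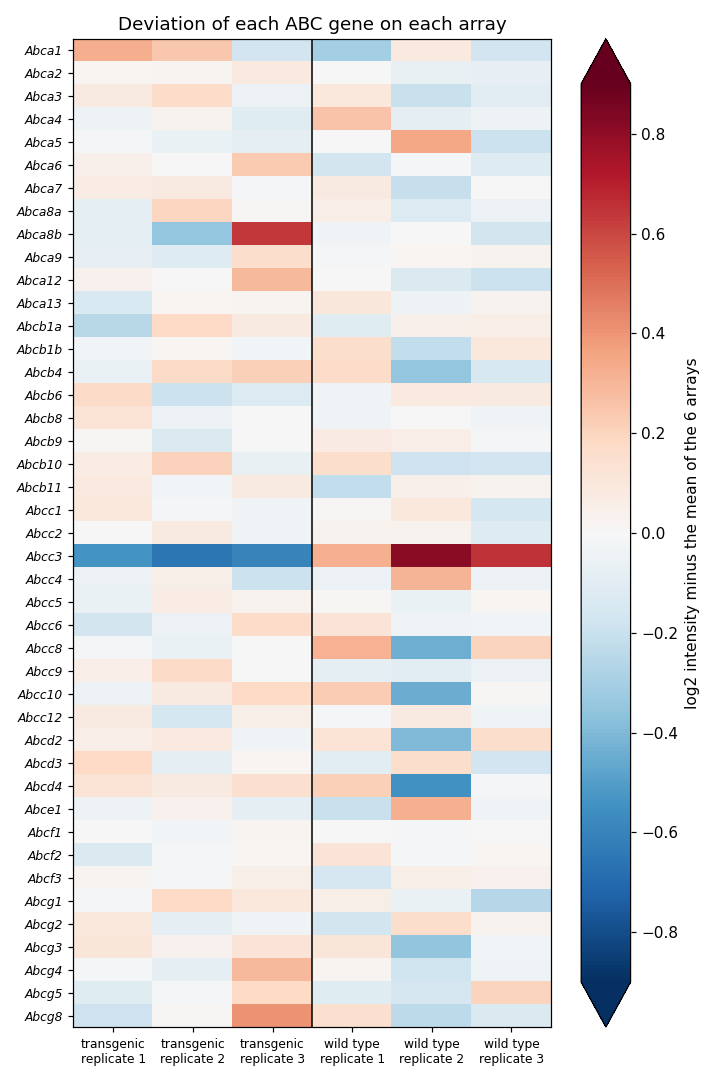
Log2 intensity of each ABC gene (rows) on each array (columns, transgenic left and wild type right) minus the gene's mean over the 6 arrays, in red where above and blue where below that mean. Abcc3 is below its mean on all 3 transgenic arrays and above it on all 3 wild-type arrays, and wild type replicate 2 holds many of the other strong colours, such as Abcd4, Abcc8 and Abcc10.

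Abcc3 lies on chromosome 11, and the 4 nearest protein-coding genes with a probe set on either side were set beside it, a choice made after its value was seen. They were Tob1, Wfikkn2, Luc7l3 and Ankrd40 on 1 side and Cacna1g, Epn3, Mycbpap and Rsad1 on the other. Their 15 probe sets gave 0 calls and differences from -0.29 to 0.23, and 1, of Luc7l3, had an unadjusted limma p under 0.05. Ankrd40 and Cacna1g, the closest of them, read 0.04 and 0.18 with their brightest probe sets. The dimmer Ankrd40 probe sets read -0.17 and -0.23, and those of Luc7l3 read -0.14, -0.16 and -0.29. Of the 15 probe sets, 7 lay above 0 and 8 below.

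In whole testis, fewer cells of a type and less RNA per cell cannot be told apart. The lists of cell markers were therefore set beside Abcc3, with the sum of linear intensities over each list on each array. Over all genes, 56.8% of differences lay above 0 and 0.616% were called. Sertoli markers summed to 8276 to 8758 in transgenic and 9571 to 10171 in wild-type testis. Of the 8 members 6 lay below 0, with a median of -0.05 and 1 call, Cst9 (-2.35). Without Cst9 the Sertoli sums overlapped, at 8037 to 8510 in transgenic and 8417 to 8743 in wild-type testis. Spermatocyte markers summed to 5815 to 6310 in transgenic, against 6751 to 7157 in wild type, with all 8 members below 0 and 0 calls, and these sums did not overlap when any 1 member was left out. Hepatocyte markers, chosen because liver expresses Abcc3, summed to 954 to 1007 in transgenic, against 1056 to 1085 in wild type, with 6 of 7 below 0 and 0 calls. Without Apoh, the brightest of them, these sums overlapped, at 407 to 429 in transgenic and 371 to 489 in wild type. Sums of Leydig markers did not overlap either but ran the other way, at 5595 to 6400 in transgenic and 4605 to 5421 in wild-type testis, with 4 of 5 above 0, a median of 0.03 and Hsd3b1 called (1.48). Without Hsd3b1 the Leydig sums overlapped, at 4734 to 5397 in transgenic and 4290 to 5022 in wild type. The endothelial list had 9 of 10 members above 0 and 0 calls, and the macrophage list 9 of 10 above 0 and Fcgr3 called as lower (-0.82). The groups did not overlap for 5 endothelial and 4 macrophage members, against 12.5% of all genes. Nor did they for 2 of 5 Leydig, 3 of 8 Sertoli, 3 of 8 spermatocyte and 3 of 10 spermatid members. The endothelial and macrophage lists each had 4 members with an unadjusted limma p under 0.05, against 7.48% of all genes. The spermatocyte list had 3, the Leydig and Sertoli lists 2 each, and each other list 0 or 1. The marker lists were made with earlier results of these arrays known, so nothing is read from these shares. The adipose and endothelial sums were higher in transgenic testis without overlap, but the adipose sums overlapped without Adipoq, Fabp4 or Retn. The endothelial sums overlapped without Cldn5 and stayed apart in the other 9 cases. Leaving out each member in turn was an alternative added after the data were seen. The sums of the epididymal, erythroid, macrophage, myoid, spermatogonial and spermatid lists overlapped with all members. Without Fcgr3 the macrophage sums did not overlap, at 1433 to 1534 in transgenic and 1206 to 1338 in wild-type testis. The part of any of these cells in the Abcc3 difference was not tested.

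The genes that regulate ABC genes or share their substrates were followed in 6 lists with 127 measured genes. Of these, 3 were called, 2 higher and 1 lower (over all genes, 0.264% were called higher and 0.352% lower). These lists were chosen with earlier results of these arrays known, so nothing is read from that count. Of the 20 measured regulators, such as the liver X, pregnane X and PPAR receptors, 0 passed, 1 had an unadjusted limma p under 0.05, and the median was 0.045. The 2 of smallest p were Ahr, the dioxin receptor, at 0.28 (adjusted p = 0.679), and Ppara, a fatty acid receptor, at 0.21 (adjusted p = 0.746). Among 29 genes of conjugating enzyme families and of glutathione and sulfate donor supply, 1 passed. Counting it, 3 had an unadjusted limma p under 0.05. Sult1e1, which sulfates estrogens, rose to 8.76 ± 0.20 in transgenic testis, against 6.80 ± 0.33 in wild type (SD, n = 3 each, limma adjusted p = 0.00103). The list's median was 0.08, and the glutathione synthetase Gss read 0.52 (adjusted p = 0.107).

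Of the 28 measured organic ion and bile acid carriers, which take up many of the same substrates, 0 passed and 3 had an unadjusted limma p under 0.05. Slc47a1, an extruder of organic cations, read 0.47 (adjusted p = 0.183) and the anion carrier Slco3a1 0.29 (adjusted p = 0.685). In the list of 19 sterol and lipid partners 2 passed, in opposite directions (10.5%, against 0.616% of all genes). Of the 19, 5 had an unadjusted limma p under 0.05, against 7.48% of all genes. The list was chosen with earlier results of these arrays known, so nothing is read from these shares. Apoc1, an apolipoprotein, rose to 8.73 ± 0.10 in transgenic testis, against 7.90 ± 0.14 in wild type, and Apoc2 of the same gene cluster fell to 6.19 ± 0.12, against 8.19 ± 0.11 in wild type (SD, n = 3 each, limma adjusted p = 0.0112 and 4.85e-05). The list's median was 0.08. Of the 18 peroxisomal genes 0 passed and 3 had an unadjusted limma p under 0.05. Phyh read 0.31 and Acox3 -0.30 (limma adjusted p = 0.451 and 0.655). Of the 13 genes of ribosome recycling and initiation control 0 passed by limma and 0 had an unadjusted p under 0.05, with Etf1 at -0.15 and Pelo at 0.13. The call of Apoc1 was lost without wild type replicate 3 or any 1 of the transgenic arrays, when 2 genes of the 127 were left. With the Gapdh covariate, Apoc2 was the 1 gene of the 127 still called.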

How the data were processed

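Affymetrix mouse expression arrays measured total RNA of testis, 3 transgenic and 3 wild-type samples. The deposited table holds a log2 intensity for each probe set, made by the authors with RMA and the affy package per the submitters' processing notes, with no version given. RMA forces arrays to a near-common distribution and gives no detection call. Of 45101 probe sets, 64 controls were left out. The platform annotation gave 1 gene to 34945 probe sets, and symbols were updated through a RefSeq table of GRCm38.p6 (34741 matched).

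The genotypes were compared by limma 3.58.1 under R 4.3.3 (transgenic minus wild type, two-sided), adjusting by Benjamini-Hochberg over 45037 probe sets, with a threshold of 0.05. Members and lists were chosen with earlier results of these data known. Named were members past the threshold, probe sets of unadjusted p under 0.05, the largest rise and fall in each subfamily and, in each related list, calls or the 2 of smallest p. Other members are given as values. On simulated arrays of 45037 probe sets, 75% of 2-fold and 99% of 4-fold changes were recovered.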

Additional observations from a re-analysis of the deposited data

How the results depend on the processing

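The call of Abcc3 held under both filters on dim probe sets, repeated quantile normalization, median centring, trend and robust moderation, array weights, the replicate block, without probe sets whose suffix (_x, _s or _a) marks possible cross-matches, and after averaging each gene's probe sets, with differences from -1.22 to -1.19. The count of members called was 1 in each of these. Leaving out 1 array gave -1.33 to -1.08 and 0 to 1 members called, the 0 being without transgenic replicate 2. With the Gapdh covariate, added after the data were seen, Abcc3 read -0.84 and 0 members were called. The count of related genes was 3, but 9 with array weights, 1 with the covariate and 2 to 6 when 1 array was left out, the 6 being without wild type replicate 2. The members' median of 0.04 read 0.02 with median centring, 0.02 to 0.06 when 1 array was left out and -0.072 with the Gapdh covariate. Small differences that did not pass changed sign. Abca5 read 0.082 with array weights and -0.228 to 0.0417 when 1 array was left out. Abcf3 read -0.00051 with array weights, -0.0511 with averaged probe sets and -0.0283 to 0.0717 when 1 array was left out. Abce1 ran from -0.178 to 0.0817 and Abcg2 from -0.105 to 0.06 in that way. After the filters dropping the lowest 40% and 60% of probe sets, 31 and 24 members remained. The replicate numbers did not pair the samples (correlations of -0.32, -0.07 and -0.01 for same-numbered arrays). With the replicate block Abcc3 read -1.19 (limma adjusted p = 0.0179), and all-probe-set calls numbered 117 in place of 200. They numbered 306 with trend and robust moderation, 1058 with array weights, 18 with the covariate and 70 to 429 when 1 array was left out. The cause of these shifts was not tested. Signal over background is unknown for the dim members.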
